A study of Macaca fascicularis with 21 samples.

Results

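Yolk sac endoderm and extraembryonic mesenchyme were compared within the same embryos of the cynomolgus monkey (Macaca fascicularis). The deposited annotation calls the endoderm VE/YE, read here as visceral or yolk sac endoderm, and the mesenchyme EXMC. Embryos entered when they held at least 5 cells of each label, which 9 of the 21 embryos did. They gave 75 VE/YE and 204 EXMC cells, 279 of the 1453 cells of the series. Just outside the limit stood 2 day 12 embryos (replicates 3 and 5) with 4 VE/YE cells each.

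The endoderm of the yolk sac is an epithelium that faces the cavity of the sac. Before a liver exists it makes apolipoproteins and other plasma proteins and takes up material for the embryo, and in the mouse its anterior part secretes inhibitors of Nodal and WNT signals. Extraembryonic mesenchyme is a loose tissue rich in collagen that covers the yolk sac, the amnion and the inside of the chorion, and the first vessels and blood of the yolk sac form within it. Both tissues lie outside the embryo proper and both are known to use the transcription factors GATA4 and GATA6. The comparison asks how far these neighbours differ, whether the difference moves with day, and what they share against the epiblast (EPI), the tissue that forms the embryo.

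Per the labels' protocols, blastocysts freed of their zona pellucida were grown one per well on a gel of basement membrane proteins (Matrigel) while the serum in the medium was raised step by step. Tissue around the embryonic disc was cut away before digestion and single cells were picked into tubes, so cell numbers describe the picked cells. The 9 embryos were all untreated, with no genetic change named: 2 of day 11, 1 of day 12, 1 of day 13, 4 of day 16 and 1 of day 17, days that the deposited cell table counts from fertilization. Each embryo gave 5 to 14 VE/YE cells and 7 to 64 EXMC cells. Counts of the 3' ends of transcripts were summed per embryo and type, which gave 164618 to 1677017 counts per VE/YE sum and 459094 to 8163009 per EXMC sum. The embryo was the replicate throughout, so n = 9 sums of each type unless another number is given.

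The labels were first checked against marker genes, which are not independent evidence, because the annotation was made from the same counts. The summed level of 8 VE/YE markers (among them TTR, APOA1, FOXA2 and HNF4A) was higher than that of 8 EXMC markers (among them COL6A1, TBX20, HAND2 and POSTN) in 70 of 75 VE/YE cells. The reverse held in 202 of 204 EXMC cells. Of the 7 cells on the other side, 5 were labelled VE/YE, 2 of them of day 16 replicate 1 and 3 of day 17 replicate 3. The other 2 were labelled EXMC (day 11 replicate 2 and day 16 replicate 2), with 21759 and 28396 CPM (each count scaled to a library of 1e6) of VE/YE markers. These few cells weigh on low values: the 5 VE/YE cells held 44.6% of the COL3A1 counts of the VE/YE sums, and the 2 EXMC cells held 29.4% of all TTR, 24.6% of APOA1 and 74.1% of APOB counts of the EXMC sums.

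**Figure D1:**
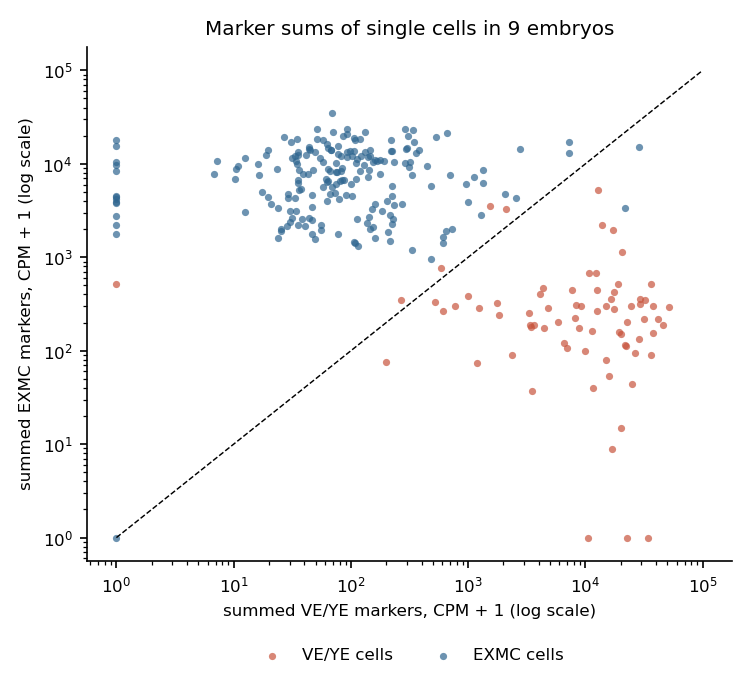
Each point is 1 cell of the 9 embryos, with the summed level of 8 VE/YE markers on the x axis and of 8 EXMC markers on the y axis (CPM + 1, log scales; the dashed line marks equal sums). VE/YE cells lie below the line except for 5 of 75, and EXMC cells above it except for 2 of 204.

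VE/YE cells carried fewer counts. The median count per cell, averaged over embryos, was 51496 ± 23506 in VE/YE and 70836 ± 23902 in EXMC (SD), and it was lower in VE/YE in 7 of 9 embryos (exact two-sided sign-flip permutation test over embryos, p = 0.0312; the smallest possible is 0.00391). Genes detected per cell numbered 5820 ± 1161 in VE/YE and 5923 ± 947.1 in EXMC (exact permutation p = 0.688). The sums were scaled for depth, and the part of this gap in the gene results was not tested. Markers of other cell types were compared in the same way, where 13.2% of all genes tested were called. The summed level of 6 trophoblast markers ran from 50.3 to 1843 CPM in VE/YE and from 73.3 to 1414 CPM in EXMC, with 0 of 3 tested members called (0 at an unadjusted p under 0.05 in edgeR, and 0 called by DESeq2). At an unadjusted p under 0.05 there was 1 with DESeq2 and 1 with limma on means over cells. Without day 13 replicate 3 the trophoblast marker CGA was called higher in VE/YE (log2 of VE/YE over EXMC 0.77, edgeR adjusted p = 0.0309). The 6 amnion markers ran from 1.48 to 266.5 CPM in VE/YE and from 31.8 to 123.5 CPM in EXMC, with 0 of 2 tested members called (0 at an unadjusted p under 0.05 in edgeR, and 0 called by DESeq2). The 6 epiblast markers summed to 356 to 2268 CPM in VE/YE (median 577) and 74.1 to 828 CPM in EXMC (median 118). Of 4 tested, GDF3 was called higher in VE/YE and DPPA4, a nuclear protein of pluripotent cells, higher in EXMC (log2 of VE/YE over EXMC -2.22 ± 0.60, adjusted p = 0.015; lost without day 11 replicate 1, adjusted p = 0.0503). The 5 gastrulation markers summed to 24.8 to 235 CPM in VE/YE (median 123) and 0.268 to 38.2 CPM in EXMC (median 19.4), and EOMES, the 1 tested, was called higher in VE/YE. The part of such cells or their RNA in the gene results was not tested.

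Of 9112 genes tested, 1201 (13.2%) differed between the types at an adjusted p under 0.05 (edgeR's quasi-likelihood test with the embryo as a block and Benjamini-Hochberg adjustment over all genes tested). Of these, 558 (6.12%) were higher in VE/YE and 643 (7.06%) higher in EXMC. The embryo values of the types did not overlap at all for 154 genes (1.69%). Below, fold changes are log2 of VE/YE over EXMC with their standard error, and levels are CPM of the sums. A gene passed the filter on low counts when enough sums held it, so a gene high in 1 type could pass through that type alone. Counts over gene lists are therefore read as descriptions.

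The 12 genes named by rule on the VE/YE side were called, higher in VE/YE in every embryo and at a mean of at least 100 CPM there. They were PDYN, PLCXD3, IHH, TTR, SLC5A10, NRCAM, FGF17, APOA1, IL23A, LEFTY1, LGR5 and COL9A2, with log2 fold changes between 6.81 and 5.26. PDYN, the precursor of the dynorphin opioid peptides, ranged from 18.9 to 368 CPM (median 86.7) in VE/YE, against 0 to 2.94 CPM (median 0) in EXMC. Every VE/YE sum lay above every EXMC sum (6.81 ± 0.73, adjusted p = 2.75e-06). SLC5A10, a sodium-coupled sugar transporter, ranged from 34.1 to 561 CPM (median 119) in VE/YE, against 0 to 49.9 CPM (median 1.08) in EXMC (6.11 ± 1.09). IL23A, a cytokine subunit, ranged from 26.1 to 259 CPM (median 129) in VE/YE, against 0 to 12.0 CPM (median 1.15) in EXMC. The IL23A groups did not overlap (5.48 ± 0.68, adjusted p = 1.95e-05), whereas the SLC5A10 groups did. FGF17, a fibroblast growth factor, ranged from 6.29 to 393 CPM (median 75.8) in VE/YE, against 0 to 14.8 CPM (median 0.573) in EXMC (5.71 ± 0.67), and COL9A2, a chain of collagen IX, ranged from 59.6 to 667 CPM (median 175) in VE/YE, against 0 to 90.6 CPM (median 2.16) in EXMC (5.26 ± 0.55). Both were higher in VE/YE in each of the 9 embryos, although their ranges touched across embryos.

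The 12 genes named on the EXMC side were CHSY3, POSTN, COL6A3, TEK, FGF7, HGF, ADAM12, COL3A1, ZEB2, WNT2, HAND2 and IGFBP3, with log2 fold changes between -5.88 and -5.09. They hold matrix proteins, enzymes that build or cut matrix, growth factors and transcription factors. CHSY3, which builds chondroitin sulfate chains, ranged from 0 to 7.40 CPM (median 2.56) in VE/YE, against 35.5 to 475 CPM (median 169) in EXMC (-5.88 ± 0.47). POSTN, the matrix protein periostin, ranged from 0 to 14.8 CPM (median 4.52) in VE/YE, against 34.1 to 1127 CPM (median 288) in EXMC (-5.86 ± 0.41). IGFBP3, a binding protein of insulin-like growth factors, ranged from 4.96 to 405 CPM (median 104) in VE/YE, against 742 to 6523 CPM (median 4236) in EXMC (-5.09 ± 0.43). For all 3 genes the lowest EXMC sum stood above the highest VE/YE sum, with adjusted p = 6.46e-08, 7.81e-09 and 2.16e-05. ADAM12, a membrane metalloprotease, ranged from 0 to 26.9 CPM (median 2.48) in VE/YE, against 116 to 575 CPM (median 315) in EXMC (-5.51 ± 0.53, adjusted p = 4.01e-06), again with no overlap.

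**Figure D2:**
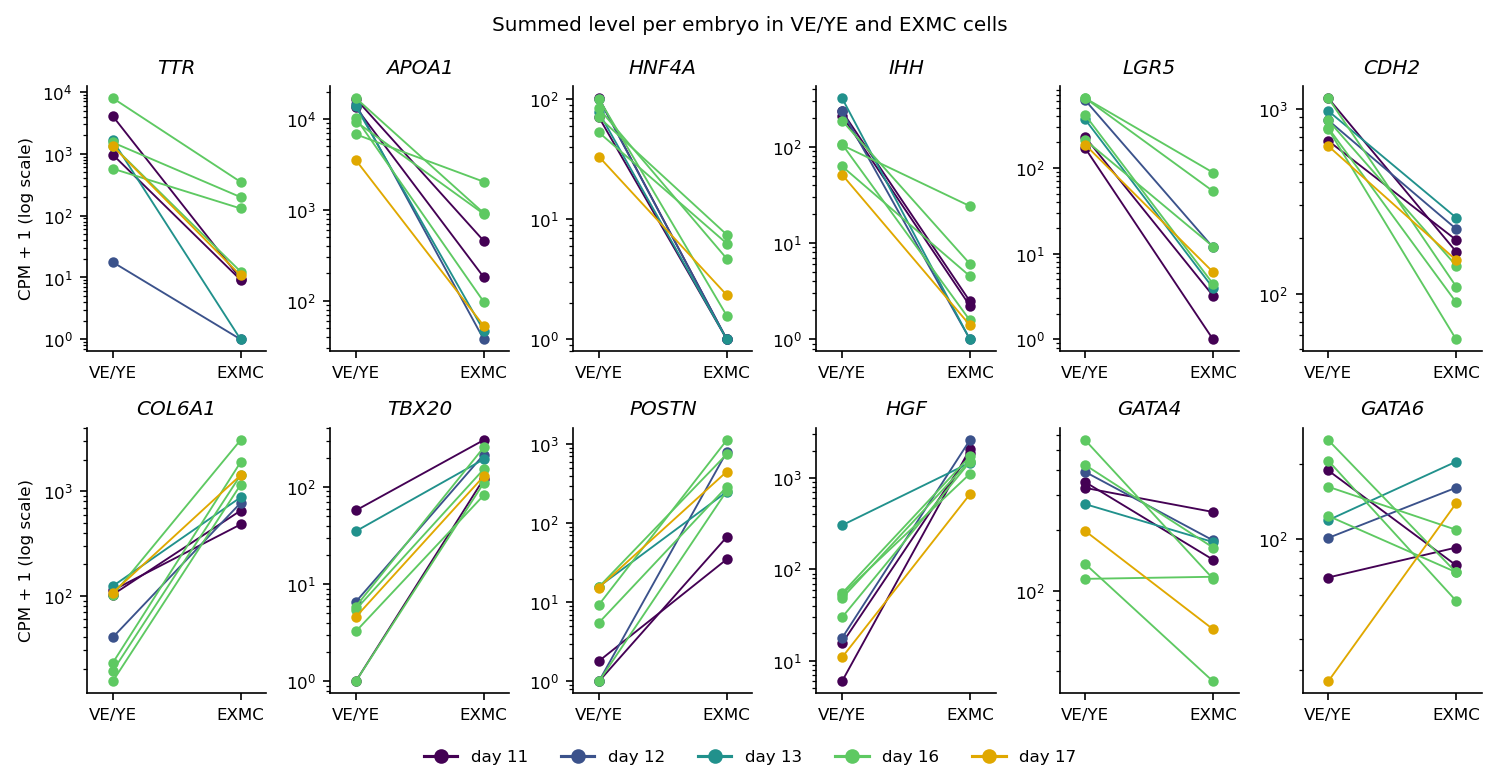
Summed level per embryo of 12 genes in VE/YE (left) and EXMC (right), as CPM + 1 on a log scale; each line joins the sums of 1 embryo, coloured by day. TTR, APOA1, HNF4A, IHH, LGR5 and CDH2 fall along every line, COL6A1, TBX20, POSTN and HGF rise along every line, GATA4 falls in 8 of 9 embryos, and GATA6 goes both ways.

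Genes for plasma proteins and apolipoproteins were mostly higher in VE/YE among the members that passed the filter. Of 30 members 10 passed the filter, 9 of them higher in VE/YE and 0 higher in EXMC, with a median log2 fold change of 4.64 against -0.13 over all genes tested. APOA1, the main protein of high-density lipoprotein, ranged from 3535 to 16971 CPM (median 13440) in VE/YE, against 36.7 to 2041 CPM (median 181) in EXMC (5.63 ± 0.89, adjusted p = 0.00336). TTR, transthyretin, which carries thyroid hormone, ranged from 16.7 to 7946 CPM (median 1345) in VE/YE, against 0 to 349.6 CPM (median 9.77) in EXMC (6.14 ± 1.20, adjusted p = 0.0103). APOA1 did not overlap, while the lowest VE/YE sum of TTR, in day 12 replicate 2, fell inside the EXMC range. Without the 7 cells on the other side the log2 fold change was 6.71 for APOA1 and 7.08 for TTR. Both genes are in the marker sum that picked out these cells, so a wider gap without them was fixed by that choice. Prothrombin (F2, 5.46 ± 1.17), the adhesion protein vitronectin (VTN, 2.68 ± 0.58), and the apolipoproteins APOB (5.19 ± 1.08), APOC3 (5.89 ± 0.72), APOM (4.09 ± 0.95), APOC1 (2.44 ± 0.29) and APOE (1.83 ± 0.21) were called too.

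APOE, a ligand of lipoprotein receptors, was counted on both sides, at 429 to 1653 CPM in VE/YE (median 929.8) and 70.5 to 768 CPM in EXMC (median 238). Its ranges overlapped, yet it was higher in VE/YE in every embryo (adjusted p = 5.37e-06). APOA2, a second protein of high-density lipoprotein, was the member not called, at 0 to 279 CPM in VE/YE (median 66.9) and 0 to 39.6 CPM in EXMC (median 6.49) (3.36 ± 1.21, adjusted p = 0.104). The remaining 20 members did not pass the filter. Among them the fibrinogen chain FGB had 1224 counts over all VE/YE sums and 171 over all EXMC sums, AFP had 677 and 64, and albumin (ALB), the liver's main plasma protein, 7 and 0.

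Seen cell by cell, TTR had a count in 74.7% of VE/YE cells (95% exact binomial interval 63.3 to 84.0), 34.8% of EXMC cells and 33.6% of EPI cells of the same embryos. The median depth of these cells was 50315, 69745 and 71270 counts. The interval of the EXMC share (28.3 to 41.8) held the EPI share, while the highest single cell stood at 5175 CPM in EXMC and 514 CPM in EPI. With every cell thinned to 10000 counts, which left out 9 VE/YE and 22 EXMC cells, the shares were 60.6%, 13.7% and 9.30%. APOA1 had a count in 98.7% of VE/YE and 88.7% of EXMC cells, but also in 86.9% of EPI cells. The levels parted more clearly than the shares, with a median of 10200 CPM in VE/YE cells against 59.8 CPM in EXMC and 45.1 CPM in EPI cells. Such intervals cover counting error only.

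Genes of lipid handling and uptake were few after the filter. Of 14 lipid and vitamin genes 3 were tested, and MTTP, the transfer protein that loads lipid onto APOB, was called (5.66 ± 1.00, adjusted p = 0.00175). MTTP ranged from 11.1 to 230.5 CPM (median 99.1) in VE/YE, against 0 to 18.2 CPM (median 0.741) in EXMC. Of 8 genes of endocytic receptors 4 were tested. LRP2, megalin, a receptor for many ligands in absorptive epithelia, ranged from 73.7 to 905 CPM (median 477) in VE/YE, against 4.82 to 80.7 CPM (median 13.0) in EXMC (4.53 ± 0.49, adjusted p = 2.52e-05). DAB2, an adaptor of the same receptors, went the other way, at 24.8 to 384 CPM in VE/YE (median 62.0) and 173 to 479 CPM in EXMC (median 275) (-1.52 ± 0.43, adjusted p = 0.0286). That call was lost when any 1 of 6 embryos was left out, with adjusted p up to 0.0864 (without day 17 replicate 3). CUBN, the partner receptor of megalin, did not pass the filter, with 234 VE/YE and 184 EXMC counts.

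GATA4 and GATA6, zinc finger factors of both tissues, separated only in part. GATA4 ranged from 114 to 562 CPM (median 324) in VE/YE, against 34.4 to 246 CPM (median 142) in EXMC. It was higher in VE/YE in 8 of 9 embryos with overlapping ranges, and the log2 fold change was 1.20 ± 0.25, adjusted p = 0.00205. GATA6 ranged from 26.1 to 249 CPM (median 123) in VE/YE, against 55.8 to 204 CPM (median 91.7) in EXMC, so the ranges lay over each other. Its log2 fold change was 0.27 ± 0.39, adjusted p = 0.739, with a 95% interval of -0.55 to 1.09, which leaves room for a change in either direction. A GATA4 count was found in 97.3% of VE/YE cells, 69.6% of EXMC cells and 16.8% of EPI cells, and a GATA6 count in 80.0%, 75.5% and 16.8%.

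The other endoderm factors divided the types far more widely. Of 20 endoderm transcription factors 11 were tested, 7 were higher in VE/YE and 0 higher in EXMC (median log2 fold change 4.30). HNF4A, a nuclear receptor that drives liver and yolk sac genes, ranged from 32.3 to 102 CPM (median 76.9) in VE/YE, against 0 to 6.45 CPM (median 0.573) in EXMC. FOXA1, a pioneer factor of endoderm, ranged from 23.1 to 137 CPM (median 41.6) in VE/YE, against 0 to 4.61 CPM (median 0.27) in EXMC. In both genes the types did not overlap and EXMC sums stayed under 10 CPM, with log2 fold changes of 5.58 ± 0.72 and 6.19 ± 0.72. FOXA2 (4.76 ± 1.15, adjusted p = 0.0122) and SOX17 (5.32 ± 1.19, adjusted p = 0.011), further factors of endoderm, were called with overlapping ranges. EOMES, a T-box factor of both endoderm and primitive streak, ranged from 4.49 to 229.8 CPM (median 115) in VE/YE, against 0 to 22.9 CPM (median 6.47) in EXMC (4.30 ± 0.72, adjusted p = 0.000597). SALL4, KLF5 and CREB3L3 were tested and not called, and HHEX did not pass the filter, with 186 VE/YE and 49 EXMC counts.

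Genes that mark the anterior visceral endoderm of the mouse were present in VE/YE. Of 10 members 9 were tested, 5 were higher in VE/YE and 1 in EXMC. LEFTY1, an inhibitor of Nodal, ranged from 5.57 to 377 CPM (median 134) in VE/YE, against 0.27 to 19.99 CPM (median 2.16) in EXMC (5.44 ± 0.69, adjusted p = 4.76e-05), and LEFTY2 had a log2 fold change of 4.89 ± 0.58. NODAL, the ligand that they inhibit, ranged from 9.88 to 151 CPM (median 83.6) in VE/YE, against 0 to 10.6 CPM (median 0.134) in EXMC (5.03 ± 0.67, adjusted p = 2.52e-05). Ligand and inhibitors were thus all called on the VE/YE side, each with some overlap across embryos. DKK1, an inhibitor of WNT, ranged from 8.33 to 446 CPM (median 126) in VE/YE, against 0 to 102 CPM (median 12.0) in EXMC (2.97 ± 0.77, adjusted p = 0.0219), and its call was lost without day 13 replicate 3 (adjusted p = 0.0524). LHX1, a LIM homeobox factor, had a log2 fold change of 3.93 ± 1.01 and was lost without day 16 replicate 1 (adjusted p = 0.0548).

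OTX2, a homeobox factor of anterior visceral endoderm and epiblast, ranged from 27.8 to 714 CPM (median 355) in VE/YE, against 0 to 149.8 CPM (median 16.0) in EXMC and missed the threshold (4.49 ± 1.29, adjusted p = 0.0558). CER1, a secreted inhibitor of Nodal, BMP and WNT, did not pass the filter, with 1346 counts over the VE/YE sums and 24 over the EXMC sums. FST, follistatin, which binds activin, was the member called higher in EXMC, at 7.33 to 736 CPM in VE/YE (median 27.4) and 71.9 to 249.5 CPM in EXMC (median 129) (-1.89 ± 0.48, adjusted p = 0.0122). SFRP1 and FRZB, the remaining tested members, were not called between the types. FRZB stood at 174 CPM in VE/YE and 377 CPM in EXMC over the sums of the 9 embryos. Its log2 difference of VE/YE minus EXMC (CPM + 1) ran from 3.32 to 5.87 on days 11 to 13. On days 16 and 17 that difference ran from -4.38 to -0.33. GDF3, a Nodal-related ligand listed here as an epiblast marker, ranged from 0 to 2017 CPM (median 399) in VE/YE, against 0 to 258 CPM (median 1.22) in EXMC (5.26 ± 1.27, adjusted p = 0.0269). It is part of the epiblast marker sum given above, and its call was lost without any 1 of 5 embryos (adjusted p up to 0.0654, without day 11 replicate 2). Over the sums of the 9 embryos GDF3 stood at 567 CPM in VE/YE, 32.0 CPM in EXMC and 74.1 CPM in EPI.

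Mesenchyme transcription factors went the other way. Of 25 members 14 were tested, 11 were higher in EXMC and 0 higher in VE/YE (median log2 fold change -3.44). HAND2, a basic helix-loop-helix factor of heart and lateral mesoderm, ranged from 0 to 10.4 CPM (median 4.73) in VE/YE, against 60.6 to 308 CPM (median 153) in EXMC (-5.19 ± 0.46). ZEB2, a repressor of epithelial genes, ranged from 0 to 115 CPM (median 4.73) in VE/YE, against 281 to 884 CPM (median 523) in EXMC (-5.35 ± 0.61). TBX20, a T-box factor of heart mesoderm, ranged from 0 to 56.3 CPM (median 4.48) in VE/YE, against 81.1 to 303 CPM (median 151) in EXMC (-4.48 ± 0.48). The types did not overlap for any of the 3. LEF1, a factor of WNT signalling (-4.25 ± 0.46), and MEIS2, a homeobox cofactor (-3.12 ± 0.36), were likewise apart in every sum, and HAND1 (-3.17 ± 0.59) and FOXF1 (-3.90 ± 0.81) overlapped. The adjusted p of these 7 genes lay between 2.01e-07 for HAND2 and 0.00251 for HAND1.

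Not every factor linked to mesenchyme differed. SNAI1, a repressor of E-cadherin, had a log2 fold change of -1.86 ± 0.68, adjusted p = 0.0807, and TBX3 and NR2F2 were not called either. TCF21 and PRRX1 did not pass the filter, with 1 VE/YE and 463 EXMC counts for TCF21 and 1 and 113 for PRRX1. TBX20 was not private to EXMC: 15 of 75 VE/YE cells and 155 of 204 EXMC cells had a count, but 63.8% of trophoblast cells of the same embryos had one too.

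All 8 interstitial collagen genes that passed the filter, of 11 listed, were higher in EXMC, with a median log2 fold change of -4.90. COL6A3, a chain of collagen VI, ranged from 4.02 to 69.5 CPM (median 14.2) in VE/YE, against 375 to 1966 CPM (median 1109) in EXMC (-5.70 ± 0.31, adjusted p = 4.24e-10). COL6A1, the chain that was used as a marker, ranged from 14.2 to 123 CPM (median 100.2) in VE/YE, against 481 to 3094 CPM (median 1155) in EXMC (-4.26 ± 0.56, adjusted p = 0.000512). Neither overlapped. COL3A1 ranged from 0 to 279 CPM (median 88.9) in VE/YE, against 239 to 8560 CPM (median 3024) in EXMC, and COL1A1 ranged from 0 to 220.1 CPM (median 75.4) in VE/YE, against 172 to 5772 CPM (median 3340) in EXMC. Both are fibrillar collagens of connective tissue, and their types overlapped at the edges, where the lowest EXMC sums were those of day 11. Their log2 fold changes were -5.40 ± 0.37 and -4.80 ± 0.66. COL9A2, named above, was not on this list and was higher in VE/YE.

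Of 19 further matrix and mesenchymal genes 15 were tested, of which 9 were higher in EXMC and 1 in VE/YE. DCN, decorin, a proteoglycan of collagen fibres, ranged from 0 to 167 CPM (median 18.1) in VE/YE, against 0 to 3754 CPM (median 1373) in EXMC (-5.42 ± 0.34, adjusted p = 7.81e-09). LUM, lumican, of the same family, ranged from 5.57 to 106 CPM (median 38.6) in VE/YE, against 1.48 to 5053 CPM (median 1541) in EXMC (-4.36 ± 1.12, adjusted p = 0.0352), and its call was lost without any 1 of 7 embryos (adjusted p up to 0.0918, without day 16 replicate 1). Both proteoglycans were near 0 in part of the EXMC sums and above 1000 CPM in others. The log2 difference of VE/YE minus EXMC (CPM + 1) for DCN was -1.99, 0 and -1.66 in the embryos of days 11 and 12. On days 13 to 17 it ran from -6.74 to -4.12. For LUM that difference was 3.39 and -0.09 in day 11 replicates 1 and 2, and from -6.8 to -4.0 in the other embryos. VIM, vimentin, the intermediate filament of mesenchyme, ranged from 9.91 to 489 CPM (median 193) in VE/YE, against 474 to 2555 CPM (median 1106) in EXMC (-2.72 ± 0.38, adjusted p = 0.000325). FN1, fibronectin, was high in both types, at 2746 to 9038 CPM in VE/YE (median 4779) and 875 to 6471 CPM in EXMC (median 3658), and was not called (0.72 ± 0.37, adjusted p = 0.274; 95% interval -0.10 to 1.54).

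The member higher in VE/YE was CDH2, N-cadherin, an adhesion protein often used as a sign of mesenchyme. It ranged from 627 to 1139 CPM (median 863) in VE/YE, against 55.6 to 256 CPM (median 151) in EXMC. The lowest VE/YE sum lay above the highest EXMC sum (2.60 ± 0.23, adjusted p = 2.01e-07). CDH1, E-cadherin, did not pass the filter, with 60 VE/YE and 160 EXMC counts.

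Basement membrane genes lay on both sides. Of 15 members 14 were tested, 3 were higher in VE/YE and 5 in EXMC (median log2 fold change -0.70). AGRN, agrin, a heparan sulfate proteoglycan, ranged from 13.3 to 252 CPM (median 127) in VE/YE, against 1.89 to 47.6 CPM (median 17.0) in EXMC (2.86 ± 0.43, adjusted p = 8.14e-05). The laminin chain LAMA5 ranged from 52.1 to 259.7 CPM (median 132) in VE/YE, against 10.4 to 77.7 CPM (median 29.0) in EXMC (1.84 ± 0.39, adjusted p = 0.00238). LAMB1, a laminin beta chain, was the third VE/YE member (0.76 ± 0.22, adjusted p = 0.0229), and its call was lost without any of 3 embryos, day 11 replicates 1 and 2 and day 13 replicate 3, with adjusted p up to 0.0686. On the EXMC side stood COL4A2, a chain of collagen IV, at 33.1 to 296 CPM in VE/YE (median 145) and 257 to 1021 CPM in EXMC (median 401) (-1.80 ± 0.26, adjusted p = 4.88e-05). Its partner COL4A1 was called narrowly (-1.58 ± 0.47, adjusted p = 0.0478), and was lost without any 1 of 7 embryos (adjusted p up to 0.117, without day 16 replicate 4). NID1, nidogen 1, a linker of laminin and collagen IV, was also higher in EXMC (-1.58 ± 0.36, adjusted p = 0.00462). So were COL4A6, a further collagen IV chain (-1.52 ± 0.45, adjusted p = 0.026), and COL18A1, collagen XVIII (-1.21 ± 0.34, adjusted p = 0.0195). These calls were lost without any 1 of 5 embryos for COL4A6 (adjusted p up to 0.0873) and of 2 for COL18A1 (up to 0.0757), both highest without day 16 replicate 1.

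The laminin chains LAMA1 and LAMC1 were not called, with log2 fold changes of 0.31 ± 0.27 (95% interval -0.26 to 0.88) and -0.16 ± 0.29 (95% interval -0.76 to 0.44). LAMA1 stood at 96.1 to 371 CPM in VE/YE (median 192) and 75.2 to 300.5 CPM in EXMC (median 176), so both types held it at overlapping levels. LAMA4, another laminin chain, did not pass the filter, with 11 VE/YE and 806 EXMC counts.

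**Figure D3:**
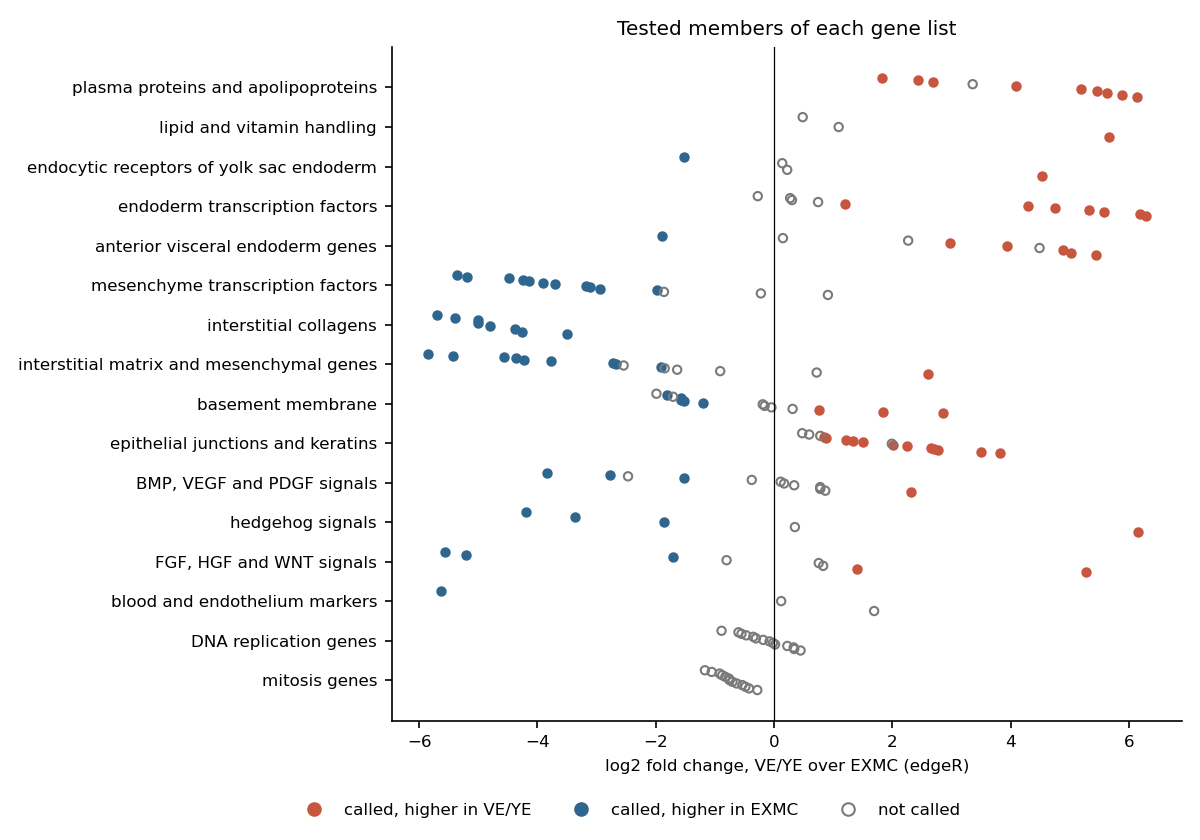
Log2 fold change of VE/YE over EXMC (x axis) for each tested member of 16 gene lists (rows); filled points were called at an adjusted p under 0.05 and open points were not. Plasma protein and epithelial members lie to the right, as do the endoderm factors except for 1 of 11. Collagen members lie to the left, as do 13 of 14 mesenchyme factors. The called members of the hedgehog list lie on both sides.

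Epithelial genes were higher in VE/YE. Of 22 members 16 were tested, 12 were higher in VE/YE and 0 in EXMC (median log2 fold change 1.75). EPCAM, an adhesion molecule of epithelia, ranged from 379 to 842 CPM (median 589.8) in VE/YE, against 68.0 to 125 CPM (median 91.1) in EXMC (2.65 ± 0.21, adjusted p = 6.61e-08). DSP, desmoplakin of the desmosome, ranged from 269.8 to 644 CPM (median 488) in VE/YE, against 53.0 to 233 CPM (median 107) in EXMC (2.02 ± 0.26, adjusted p = 2.01e-05). Both were apart in every sum, yet EXMC levels were not near 0. KRT8, a keratin of simple epithelia, ranged from 578 to 1876 CPM (median 900.1) in VE/YE, against 105 to 866 CPM (median 254) in EXMC (1.33 ± 0.26), and KRT19 ranged from 375 to 2109 CPM (median 1035) in VE/YE, against 263 to 951 CPM (median 547) in EXMC (0.84 ± 0.23). KRT19 is a keratin of the same kind, and its call was lost without day 13 replicate 3 or day 16 replicate 1 (adjusted p up to 0.0525). The keratin folds were thus below the median fold of the plasma proteins, with message in both types.

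Of 10 hedgehog genes 5 were tested, with the ligand higher in VE/YE and 3 genes of the responding side higher in EXMC. IHH, the ligand Indian hedgehog, which yolk sac endoderm is known to secrete in the mouse, ranged from 50.3 to 318 CPM (median 185) in VE/YE, against 0 to 23.1 CPM (median 1.22) in EXMC. Its types did not overlap (6.15 ± 0.77, adjusted p = 7.85e-05). GLI2, a transcription factor of the pathway, ranged from 0 to 11.8 CPM (median 2.26) in VE/YE, against 32.4 to 112 CPM (median 44.1) in EXMC, and GLI3, its relative, ranged from 0 to 29.6 CPM (median 4.73) in VE/YE, against 18.3 to 145 CPM (median 88.2) in EXMC. Both were higher in EXMC (-4.19 ± 0.67, adjusted p = 0.000158 for GLI2, and -3.36 ± 0.50, adjusted p = 8.09e-05 for GLI3), GLI2 without overlap. PTCH1, the receptor that binds the ligand and is also a target of the pathway, ranged from 2.26 to 88.0 CPM (median 6.41) in VE/YE, against 24.4 to 70.5 CPM (median 36.7) in EXMC (-1.86 ± 0.60, adjusted p = 0.0444). The PTCH1 call was lost without any 1 of 5 embryos (adjusted p up to 0.122, without day 16 replicate 2). SMO, the membrane protein that passes the signal on, was not called (0.35 ± 0.46; 95% interval -0.60 to 1.30). HHIP, which binds and blocks the ligand, and GLI1, a target, did not pass the filter, with 16 VE/YE and 297 EXMC counts for HHIP and 2 and 63 for GLI1.

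Ligands of other pathways separated the types as well. HGF, hepatocyte growth factor, a secreted ligand, ranged from 4.96 to 303 CPM (median 28.8) in VE/YE, against 664 to 2605 CPM (median 1553) in EXMC. Its types did not overlap (-5.56 ± 0.60, adjusted p = 0.000142), and its receptor MET did not pass the filter, with 105 VE/YE and 71 EXMC counts. FGF7, a growth factor for epithelia, ranged from 0 to 34.0 CPM (median 0) in VE/YE, against 2.45 to 404 CPM (median 72.4) in EXMC (-5.59 ± 0.61). WNT2, a WNT ligand, ranged from 0 to 8.87 CPM (median 1.61) in VE/YE, against 37.0 to 209 CPM (median 130.3) in EXMC (-5.21 ± 0.58). LGR5, a receptor of R-spondins that strengthens WNT signals, stood on the VE/YE side, at 169 to 649 CPM in VE/YE (median 365) and 0 to 86.9 CPM in EXMC (median 5.09) (5.28 ± 0.52, adjusted p = 8.88e-06). LGR5 was apart in every sum, and RSPO3, an R-spondin, was not called (0.83 ± 0.83, adjusted p = 0.615).

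FGFR1 ranged from 241 to 734 CPM (median 446) in VE/YE, against 73.3 to 317 CPM (median 161) in EXMC (1.40 ± 0.29, adjusted p = 0.00192), while FGFR2 was higher in EXMC (-1.70 ± 0.50, adjusted p = 0.027). Both are receptors of fibroblast growth factors, and the FGFR2 call was lost without any 1 of 6 embryos (adjusted p up to 0.0845, without day 16 replicate 1). Of 18 genes of BMP, VEGF and PDGF signals 12 were tested, with 1 higher in VE/YE and 3 in EXMC. The ligands BMP4 (-2.77 ± 0.64, adjusted p = 0.00899) and BMP5 (-3.84 ± 0.40, adjusted p = 1.97e-06) were higher in EXMC, and BMP2 was not called (-0.38 ± 0.32; 95% interval -1.05 to 0.30). BMP4 ranged from 0 to 117 CPM (median 13.5) in VE/YE, against 60.2 to 325 CPM (median 145) in EXMC. BMP6 did not pass the filter, with 506 VE/YE and 18 EXMC counts, and was not tested. PDGFC, a ligand, was higher in VE/YE (2.32 ± 0.76) and its receptor PDGFRA higher in EXMC (-1.52 ± 0.47). These calls were lost without any 1 of 7 and of 6 embryos (adjusted p up to 0.133, without day 13 replicate 3, and 0.122, without day 16 replicate 1).

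Most blood and endothelial markers did not pass the filter on low counts. Of 15 members 3 passed the filter, and TEK, the angiopoietin receptor of endothelium, was higher in EXMC. TEK ranged from 0 to 50.3 CPM (median 2.48) in VE/YE, against 122 to 273 CPM (median 158) in EXMC (-5.63 ± 0.61, adjusted p = 5.95e-06), with no overlap. RUNX1, a factor of blood formation, did not separate, at 111 to 308 CPM in VE/YE (median 175) and 88.8 to 303 CPM in EXMC (median 167) (0.12 ± 0.21; 95% interval -0.32 to 0.56). Other members lay on both sides over the sums of the 9 embryos. PECAM1 stood at 37.5 CPM in VE/YE and 15.0 CPM in EXMC, ESAM at 36.9 and 16.1 CPM, and LMO2 at 22.7 and 5.13 CPM. FLI1 (2.18 and 16.6 CPM), TAL1 (0.156 and 4.45 CPM), ERG (2.02 and 5.82 CPM) and CD34 (0.311 and 2.57 CPM) went the other way. The erythroid factor GATA1 had 0 counts in both types. KDR, the main VEGF receptor, is not on this list and did not pass the filter, with 4 VE/YE and 897 EXMC counts. The whole list summed to 237 to 420 CPM in VE/YE and 316 to 554 CPM in EXMC.

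Genes of the cell cycle were not called between the types over all days, and the change of the replication genes with day is given below. None of 14 tested DNA replication genes and none of 13 tested mitosis genes passed the threshold in edgeR, with median log2 fold changes of -0.13 and -0.75. At an unadjusted p under 0.05 there were 0 and 5 (24.2% of all genes), and DESeq2 called 0 and 1. All 13 mitosis values were below 0 in edgeR, under TMM and RLE scaling, and 12 of 13 with limma on means over cells. The lowest was that of TOP2A, which untangles chromosomes in division (-1.17 ± 0.40, adjusted p = 0.0744). TOP2A ranged from 45.8 to 881 CPM (median 224) in VE/YE, against 173 to 1717 CPM (median 415) in EXMC.

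The change of the type difference with day was tested next. The term for type by day, with day as a number, was called for 27 of 9112 genes (0.296%). In 3 of these (0.0329%) the log2 difference of VE/YE minus EXMC grew more positive with day, and in 24 (0.263%) more negative. Day differs between embryos, so other properties of an embryo cannot be told apart from its day. Without day 11 replicate 2 the count was 14 and without day 17 replicate 3 it was 100, so single embryos weighed on it. The count was 13 with no replicate block, 67 with at least 3 cells per sum, 129 without the filter on low counts and 151 with DESeq2. Of the genes named below, 5 of 11 tested lost their call without day 16 (MLLT3, SERPINF1, COL4A1, SPARC and FBLN1, adjusted p = 0.0837 to 0.205) and 4 of 12 with no replicate block (PRTG, SLIT2, DPP4 and IL1RAPL1, 0.0715 to 0.164).

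IGF2, insulin-like growth factor 2, a growth factor of fetal tissues, had the lowest adjusted p. Its EXMC level in the 4 embryos of days 11 to 13 was 46.7, 22.0, 45.4 and 28.3 CPM, and in the 5 embryos of days 16 and 17 it was 1323, 1520, 1219, 3792 and 2959 CPM. The VE/YE level was 65.2, 24.8, 5.57 and 8.87 CPM in the earlier embryos and 21.1, 28.4, 90.3, 90.4 and 41.3 CPM in the later ones. The late EXMC sums thus stood above all others, while VE/YE stayed under 100 CPM throughout. The log2 difference fell by 1.06 ± 0.11 per day (adjusted p = 3.3e-05). Over all days IGF2 was called higher in EXMC (-3.85 ± 1.05, adjusted p = 0.0455), a call lost without any 1 of 6 embryos (adjusted p up to 0.109, without day 16 replicate 2).

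SFRP1, a secreted inhibitor of WNT, was counted in VE/YE from day 11 on. In VE/YE it stood at 105, 181, 167 and 72.5 CPM on days 11 to 13 and at 265, 89.9, 102, 572 and 77.3 CPM on days 16 and 17. In EXMC it stood at 0, 0, 0 and 8.91 CPM and then at 77.9, 54.7, 148, 248 and 110.4 CPM. The gap thus narrowed as EXMC levels came up, by -1.38 ± 0.19 log2 units per day. SFRP1 is also high in EPI cells of these embryos, at 500 CPM of their sum against 168 CPM in VE/YE and 76.8 CPM in EXMC, and the part of RNA from such cells was not tested.

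DPP4, a membrane peptidase, averaged 238 ± 170.5 CPM in VE/YE and 4.27 ± 4.88 CPM in EXMC on days 11 to 13 (SD, n = 4). On days 16 and 17 it averaged 57.9 ± 54.0 CPM in VE/YE and 34.0 ± 17.2 CPM in EXMC (SD, n = 5), a slope of -1.26 ± 0.18. IL1RAPL1, a synaptic receptor protein, averaged 338 ± 443 CPM in VE/YE and 11.5 ± 8.88 CPM in EXMC early, and 65.4 ± 68.2 CPM and 54.5 ± 27.4 CPM late (-1.04 ± 0.15). In both genes the VE/YE mean lay far above the EXMC mean early, and the gap narrowed. SLIT2, a guidance ligand, and SERPINF1, a secreted serpin, had slopes of -1.38 ± 0.25, adjusted p = 0.0162 for SLIT2 and -1.39 ± 0.26, adjusted p = 0.0309 for SERPINF1. These calls were fragile: SLIT2 reached adjusted p = 0.918 without day 11 replicate 1 and was lost without day 16 replicate 4, and SERPINF1 was lost without any 1 of 6 embryos (up to 0.278, without day 11 replicate 1) and without the 7 cells (0.113).

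The change with day was called for 2 of 14 tested basement membrane genes (COL4A1 and NID2), 2 of 15 further matrix genes (SPARC and FBLN1) and 0 of 8 interstitial collagens, all 4 toward EXMC. COL4A1 averaged 513 ± 238 CPM in VE/YE and 561 ± 141 CPM in EXMC on days 11 to 13. On days 16 and 17 it averaged 181 ± 112 CPM in VE/YE and 993 ± 308 CPM in EXMC. The types overlapped in the earlier embryos and did not in the later ones (-0.56 ± 0.09, adjusted p = 0.00319), and without day 11 replicate 2 the adjusted p was 0.0503. NID2, nidogen 2, which links laminin and collagen IV, had a slope of -0.93 ± 0.15, and SPARC, a collagen-binding glycoprotein, one of -0.49 ± 0.09. FBLN1, fibulin 1 of elastic fibres and basement membranes, had a slope of -0.79 ± 0.13. NID2 was lost without day 11 replicate 1 or 2 (up to 0.0805), SPARC without these or day 16 replicate 2 (up to 0.172), and FBLN1 kept its call whichever single embryo was left out.

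In the other direction, PRTG, protogenin, a cell surface protein of the immunoglobulin family, stood in VE/YE at 62.8, 164, 150.5 and 199.7 CPM on days 11 to 13. It stood there at 611, 426, 827, 716 and 797 CPM on days 16 and 17. In EXMC it stood at 145, 345, 162 and 285 CPM early and at 278, 177, 285, 393 and 120.3 CPM late. The late VE/YE sums lay above every early one, and the EXMC ranges overlapped (0.51 ± 0.09, adjusted p = 0.00458). MLLT3, a reader of histone acylation, averaged 51.2 ± 42.9 CPM in VE/YE and 367 ± 161 CPM in EXMC early, and 244 ± 90.3 CPM and 201 ± 118 CPM late (0.72 ± 0.13, adjusted p = 0.0102). It was lost without day 11 replicate 2 (adjusted p = 0.115). Of the plasma protein, endoderm factor, mesenchyme factor, collagen and epithelial lists, 0 tested members were called for type by day in edgeR. At an unadjusted p under 0.05 there were 3, 2, 1, 4 and 2 members (7.64% of all genes), and DESeq2 called 0, 0, 0, 2 and 2. Of 9 tested anterior visceral endoderm genes 1 was called, SFRP1, with a median slope of -0.99 against -0.02 over all genes. OTX2, uncalled, had log2 differences of 6.26 to 9.48 on days 11 to 13 and 0.452 to 4.39 on days 16 and 17. Of 14 tested DNA replication genes 0 had a slope below 0 (median 0.296). In edgeR 0 were called and 6 had an unadjusted p under 0.05, and DESeq2 called 2.

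**Figure D4:**
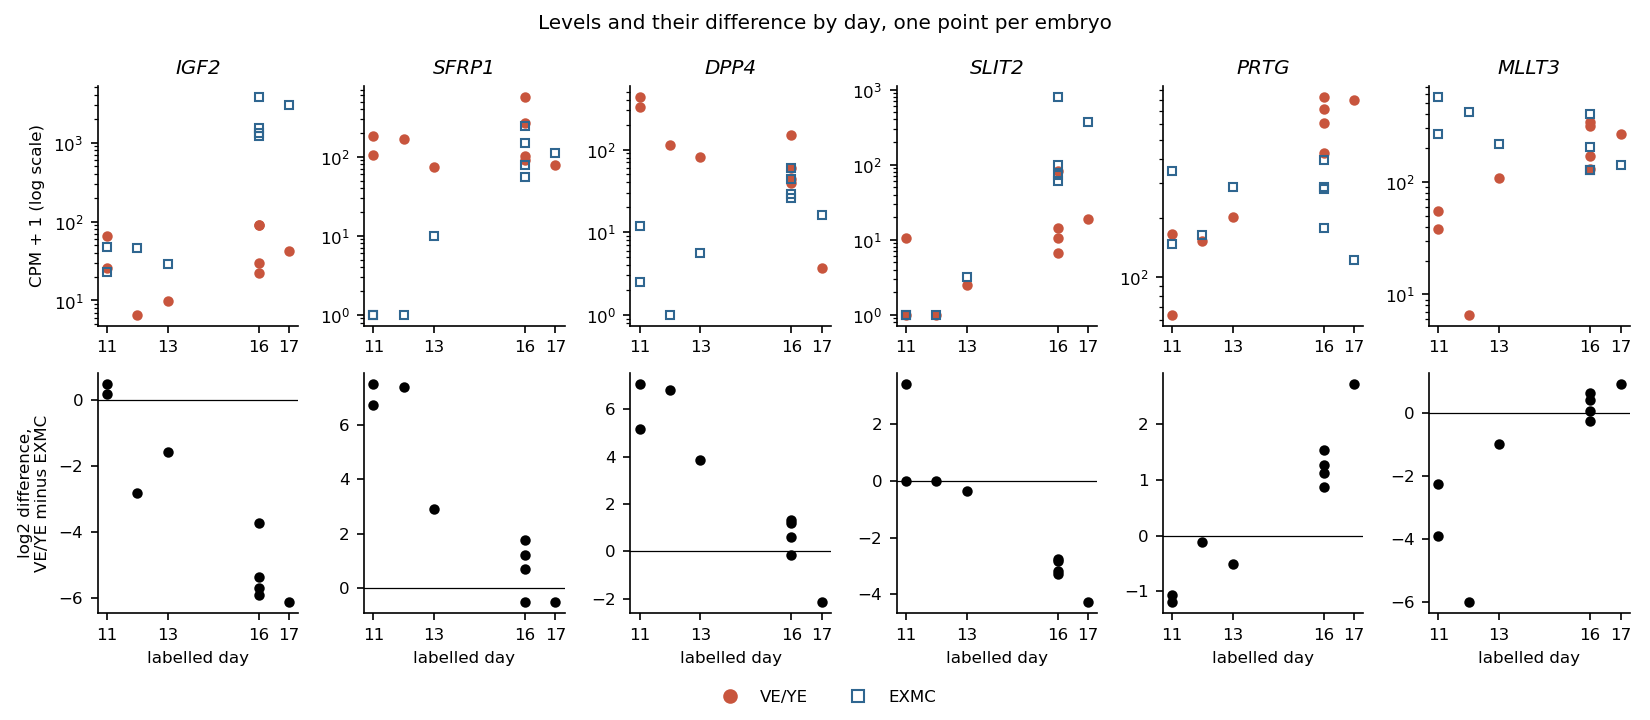
Levels in VE/YE (filled) and EXMC (open) as CPM + 1 on a log scale (upper row), and their log2 difference, VE/YE minus EXMC (lower row), against the labelled day, 1 point per embryo. The difference falls with day for IGF2, SFRP1, DPP4 and SLIT2 and climbs for PRTG and MLLT3.

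To see what the types share, both were set against EPI cells in the 7 embryos that held at least 5 cells of all 3 labels (2 of day 11, 1 of day 12 and 4 of day 16). The mean of VE/YE and EXMC differed from EPI for 2596 of 10627 genes tested (24.4%), with 1217 (11.5%) higher than in EPI. VE/YE alone differed from EPI for 2495 genes (23.5%) and EXMC alone for 1916 (18%). These last comparisons share their EPI sums, so their values are only given side by side.

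GATA4 and GATA6 were both far above EPI in each type. GATA4 spanned 105 to 535 CPM in VE/YE (median 334), 35.2 to 246 CPM in EXMC (median 139.5) and 1.34 to 22.9 CPM in EPI (median 4.06). Its log2 difference from EPI was 5.44 ± 0.44 in VE/YE and 4.27 ± 0.42 in EXMC (adjusted p = 8.59e-09 and 2.53e-07). GATA6 spanned 66.8 to 253 CPM in VE/YE (median 153), 54.0 to 158 CPM in EXMC (median 77.7) and 0.537 to 22.9 CPM in EPI (median 7.01), with differences of 4.78 ± 0.58 and 3.93 ± 0.55. No EPI sum reached the lowest sum of either type for these factors.

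Other members of the lists showed the same pattern, chosen here after their values were seen. BMP2, a ligand of both tissues here, spanned 17.5 to 226 CPM in VE/YE (median 141), 44.4 to 332 CPM in EXMC (median 133) and 0 to 8.49 CPM in EPI (median 1.80), with differences from EPI of 5.55 ± 0.50 and 5.81 ± 0.49. FN1 spanned 2540 to 8703 CPM in VE/YE (median 4545), 874 to 6621 CPM in EXMC (median 3621) and 69.2 to 316 CPM in EPI (median 148) (5.01 ± 0.52 and 4.40 ± 0.51). The laminin chains LAMA1 (3.61 ± 0.26 and 3.54 ± 0.26) and LAMB1 (4.27 ± 0.47 and 3.50 ± 0.45) also lay above EPI in both types. PDGFRA (4.37 ± 0.61 and 5.81 ± 0.61) was above EPI in both types while differing between them. Of the whole lists, 14 of 16 tested matrix genes and 10 of 14 tested basement membrane genes were higher in the mean of both types than in EPI. The share over all genes tested was 11.5%. Either type alone can raise this mean, so these counts do not show how many members both types share. Over the sums of all embryos of the type comparison, POSTN stood at 7.47 CPM in VE/YE, 394 CPM in EXMC and 10.3 CPM in EPI. VIM stood at 249, 1112 and 68.4 CPM, above EPI in both types. SOX17 was above EPI in VE/YE (5.48 ± 1.04) and missed the threshold in EXMC (1.84 ± 1.11, adjusted p = 0.289), a difference that was called between the types themselves.

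**Figure D5:**
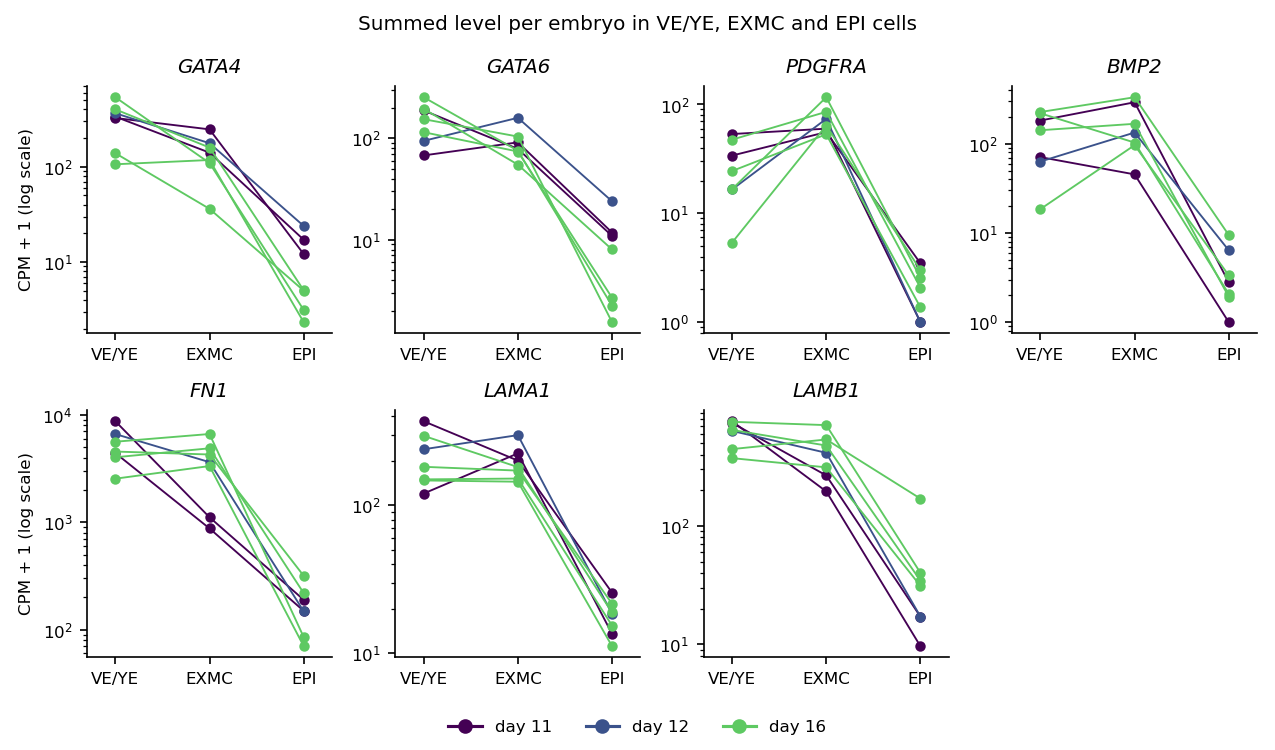
Summed level per embryo of 7 genes in VE/YE, EXMC and EPI (left to right), as CPM + 1 on a log scale; each line joins the sums of 1 of 7 embryos, coloured by day. All 7 genes drop from EXMC to EPI, and the order of VE/YE and EXMC varies by gene and embryo.

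The 8 highest differences over EPI named by rule were LHX1, APOA2, SMPX, DKK1, VCAM1, APOC3, IGF1 and TTR. Most rest on 1 to 3 EPI counts, so ratios of summed counts with their 95% exact counting intervals are given. The intervals cover counting error only and leave out the spread between embryos. LHX1 had 497 VE/YE, 148 EXMC and 2 EPI counts, which is 744 times (205 to 6160) and 101 times (27.4 to 841) the EPI share. Its EXMC level was uneven, at 0 CPM in day 12 replicate 2 and day 16 replicate 3 and 81.9 CPM in day 16 replicate 4. VCAM1, an adhesion molecule, had 118, 252 and 2 counts, 177 times (47.8 to 1480) in VE/YE and 172 times (47.1 to 1430) in EXMC. VCAM1 was not called between the types (-0.23 ± 0.86, adjusted p = 0.91). IGF1, insulin-like growth factor 1, had 535, 62 and 3 counts. Its ratio was 534 (182 to 2600) in VE/YE and 28.2 (9.20 to 140) in EXMC, and it was called higher in VE/YE between the types (3.89 ± 0.94, adjusted p = 0.0124). The log2 difference of IGF1 (VE/YE minus EXMC, CPM + 1) was below 0 in day 12 replicate 2 (-2.90) and day 16 replicate 2 (-3.01). IGF1 passed the filter in 4 of the 9 fits that left out 1 embryo and kept its call in these. The apolipoproteins APOA2 and APOC3 stood at 707 times (195 to 5850) and 820 times (226 to 6790) the EPI share in VE/YE, and at 118 times (32.2 to 982) and 37.5 times (9.90 to 317) in EXMC. SMPX, a protein of muscle cytoskeleton, stood at 1130 times (201 to 44600) in VE/YE and 61.3 times (10.5 to 2480) in EXMC on 1 EPI count. In EXMC, SMPX was at 0 CPM in day 11 replicates 1 and 2 and day 12 replicate 2. APOC3 was at 0 CPM there in day 11 replicate 2, day 12 replicate 2 and day 16 replicate 4. Of the APOC3 counts in EXMC, 47.5% over the 9 embryos came from the 2 EXMC cells with high VE/YE markers. DKK1 and TTR, with 6 and 95 EPI counts, had log2 differences from EPI of 8.55 ± 1.16 and 8.46 ± 0.96 in VE/YE and of 5.62 ± 1.14 and 3.58 ± 0.88 in EXMC. TTR in EXMC rested in part on 2 cells, as given above.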

How the data were processed

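Cells were picked singly and read at the 3' end, per the labels' protocols. The authors deposited whole-number counts per gene and cell and a table of cell types and days. STAR is named in the submitters' processing notes; the sources used here give no version, build, read counter or use of molecular identifiers. Identifiers with the prefix LOC were matched by number to RefSeq genes (assembly T2T-MFA8v1.1), and 3273 of 16890 received a symbol.

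Counts were summed per embryo and type (at least 5 cells), filtered with filterByExpr, scaled by TMM and tested in edgeR 4.0.16 (glmQLFit, robust; glmQLFTest) under R 4.3.3, with embryo as a block and Benjamini-Hochberg adjustment. Every adjusted p in the text is from edgeR. The pairing comes from the embryo labels: deviations of the types correlated at 0.106 to 0.283 within embryos. Genes named by rule were called, had the same sign in every embryo and at least 100 CPM in the higher type (the 12 highest and lowest folds); for day, the 6 highest and lowest slopes with at least 50 CPM in 1 type (only 2 rose); against EPI, the 8 highest that lay over 2 log2 units above EPI in each type. Members and lists were chosen with earlier results of these data known. No doublet caller was run on the picked cells. The scripts were tested on simulated data. Depth was between 3376 and 480691 counts per cell, and p-values measure the spread between these embryos. No sequence is shown. Some listed genes are counted but not reported here by name.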

Additional observations from a re-analysis of the deposited data

Results flagged for a closer look

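For 92 named genes the per-embryo log2 difference of VE/YE minus EXMC (CPM + 1) was searched for an embryo far from the other 8 (Dixon's criterion for 9 values); chance flags about 1 group in 20. TEK had a difference of -1.26 in day 13 replicate 3, against -7.89 to -4.79 in the others. PDGFC had -2.43 in day 17 replicate 3, against 1.06 to 4.43. CGA, the hormone subunit of trophoblast, had -3.78 in day 13 replicate 3, against -0.37 to 1.74.

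A tested change of the type difference with day was found for MLLT3 (0.72 log2 units per day), PRTG (0.515), SERPINF1 (-1.39), SLIT2 (-1.38), SFRP1 (-1.38), DPP4 (-1.26), IGF2 (-1.06), IL1RAPL1 (-1.035), NID2 (-0.93), FBLN1 (-0.79), COL4A1 (-0.56) and SPARC (-0.49), with an adjusted p of at most 0.0309 in edgeR (that of SERPINF1).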

How the results depend on the processing

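Of the genes tested between the types, edgeR called 1201. Other settings gave 1750 with DESeq2, 1162 with RLE factors, 1831 without the filter on low counts, 1515 with at least 3 cells per sum (14 embryos), 882 without day 16, 1619 with limma on means over cells and 940 to 1159 without single embryos. At least 8 cells per sum left 4 embryos and 445 genes, with fewer samples. Keeping only embryos with a developmental stage label changed nothing, since all 9 carry one. With no replicate block the counts were 968 between types, 13 for type by day and 1892 against EPI (2596 with it). Type by day, 27 genes, gave 151 with DESeq2, 26 with RLE factors, 129 with no filter, 67 with at least 3 cells, 33 without day 16 (13 of them among the 27) and 14 to 100 without single embryos; why it moves was not tested. Without the 7 cells on the other side, chosen after seeing the data, the counts were 1118, 22 and 2556. Between the types 8634 genes then passed the filter. PDYN, PLCXD3, NODAL, APOB, APOC3, SMPX, SLIT2, VCAM1 and IGF1 did not, so their folds were not tested without these cells. Of the named genes still tested between the types, 1 lost its call, IGF2 (adjusted p = 0.0552). RLE moved the median log2 fold change of all genes from -0.13 to -0.09.

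Of 102 named genes followed one by one, 9 turned the direction of their fold between the types, and these were uncalled for it in edgeR, both before and after. VCAM1 turned to 0.050 with no replicate block, to 1.25 with at least 8 cells, and ran from -0.39 to 0.30 without single embryos. LAMC1 turned to 0.065 with at least 3 cells and 0.22 without day 16, and ran from -0.30 to 0.072 without single embryos. Without day 16, PRTG was at -0.12, SERPINF1 at 2.05, GATA6 at -0.58 and CGA at -0.21. CGA was at -0.032 with at least 3 cells, and at 0.77 without day 13 replicate 3, where it was called (edgeR, adjusted p = 0.0309). With at least 8 cells BMP2 was at 0.25, SMO at -0.55 and RUNX1 at -0.013. Genes per cell, 102.3 fewer in VE/YE, became 164.9 more at 10000 counts per cell (exact permutation p = 0.0781). Sums of few VE/YE cells limit what low genes can show.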

Other observations

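Embryos outside the limit held 26 further VE/YE cells (11 embryos) and 281 EXMC cells (12 embryos), which were pooled into 1 sum of each type with 1752955 and 24273214 counts. These cells were in no fit and carry the same kind of annotation, so they repeat the description and have no replicate error. The 2 pools were not matched by day or embryo: day 14 replicates 1 and 3 gave 59 EXMC cells each, but 1 and 0 VE/YE cells. They also hold the 5 embryos with a culture stage label. All 12 genes named as higher in VE/YE and all 12 named as higher in EXMC had the same direction there. IHH stood at 338 CPM in VE/YE and 0.618 CPM in EXMC, and LEFTY1 at 300.1 and 0.412 CPM. HGF stood at 25.7 CPM in VE/YE and 1452 CPM in EXMC. APOA1 stood at 11806 and 33.9 CPM, and at 10239 and 326 CPM over the sums of the 9 embryos. The sizes of these 2 gaps cannot be compared, because only the 9 embryos pair the types. Of the genes called higher in VE/YE 550 of 558 kept their direction, and of those called higher in EXMC 621 of 643, where 4697 of all 9112 tested genes were higher in VE/YE.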
